A study of Bos taurus with 12 samples.

Results

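The family of miR-28, miR-151 and miR-708 was examined through the 4 mature members listed in the count files, bta-miR-28, bta-miR-151-5p, bta-miR-151-3p and bta-miR-708, out of 755 mature miRNA names. Each member was taken by its name and had 1 precursor entry, so no choice between entries was needed. Granulosa cells had been collected from follicles of estrous-synchronized Simmental heifers on day 3 or day 7 of the cycle, and the follicles were classed by diameter as subordinate (SF) or dominant (DF), which gave 4 groups with 3 biological replicates each. The diameter limits of both classes were set higher at day 7 than at day 3. A comparison between the days, the interaction included, therefore also sets different size ranges against each other. All heifers had received the prostaglandin analogue cloprostenol and the GnRH analogue buserelin, and those of day 3 and day 7 were different animals. The granulosa cells were spun down from follicular fluid pooled by follicle size, and how many follicles or heifers stand behind each library is not given in the sources used here. Far fewer follicles were classed as dominant than as subordinate at day 7, so a DF library of that day may stand for as little as a single follicle.

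A miRNA is a short RNA that is cut from a hairpin precursor and lowers the output of mRNAs that match its seed, the stretch near its 5′ end. Either arm of a hairpin can give a mature miRNA, named 5p or 3p. In mammals, miR-28-5p and miR-708 share a seed, and miR-151-5p carries a shifted form of it, while miR-151-3p comes from the opposite arm of the miR-151 hairpin and has another seed. These precursors belong to the miRNAs that arose from LINE-2 repeats and lie inside protein-coding genes. Per the RefSeq gene table of the assembly ARS-UCD2.0, which is not the build of the count files, the span of LPP, a focal adhesion protein, holds MIR28, that of PTK2, the focal adhesion kinase, holds MIR151, and that of TENM4, a teneurin of the cell surface, holds MIR708. In other tissues miR-151 has been linked to cell migration, miR-28 to B cell growth and miR-708 to the response to stress in the endoplasmic reticulum. Granulosa cells surround the oocyte and make estradiol in the growing follicle, and after a dominant follicle is selected its subordinates stop growing.

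The values below are normalized counts, the raw reads of a library divided by its median-of-ratios size factor over the 12 libraries. A read covers a whole mature miRNA, so no division by length was made. Since the ligation of adapters differs between sequences, levels of different members compare reads and not molecules. With 1 entry per name a library held between 160418 and 405129 reads, and 3 reads made up between 0.000741% and 0.00187% of a library, which covers counting error only. To be called differentially expressed, a miRNA needed a 2-fold change or more, a p no higher than 0.05 and, after Benjamini-Hochberg adjustment over every miRNA tested, a false discovery rate no higher than 10%, all from the quasi-likelihood test of edgeR. These p-values set a difference against the spread between the 3 libraries of a group, which edgeR moderates by the spread over all miRNAs tested. SF replicate 1 of day 7 stood apart from its group, by a chi-square of its reads per degree of freedom of 107 and 99.5 against replicates 2 and 3, which differed from each other by 21.5. In DF at day 7 replicates 2 and 3 differed by 152. As a check of the labelled tissue, bta-miR-202, a miRNA of the gonads, had between 2269 and 3766 normalized counts in the 9 libraries other than DF at day 7, and between 374 and 1000.3 in the 3 DF libraries of day 7.

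The family's share of the reads lay close together in the 4 groups, while its makeup differed between them. At day 3 the 4 members together had 1.52% ± 0.0822 (SD, n = 3) of the reads in SF and 1.63% ± 0.175 in DF. At day 7 they had 1.32% ± 0.198 in SF and 1.36% ± 0.0390 in DF. Both arms of miR-151 made up most of it. Of the family's reads, bta-miR-708 had 0.289% ± 0.101 (SF) and 0.0998% ± 0.0352 (DF) at day 3, which compares with 0.596% ± 0.420 (SF) and 8.03% ± 1.19 (DF) at day 7. For bta-miR-28 these shares were 1.03% ± 0.108, 1.18% ± 0.0871, 1.33% ± 0.738 and 4.61% ± 0.335, respectively. Ordered by mean normalized count within a group, bta-miR-708 stood at place 216 in DF at day 3 and at place 72 in DF at day 7, and bta-miR-28 at places 125 and 89.

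**Figure D1:**
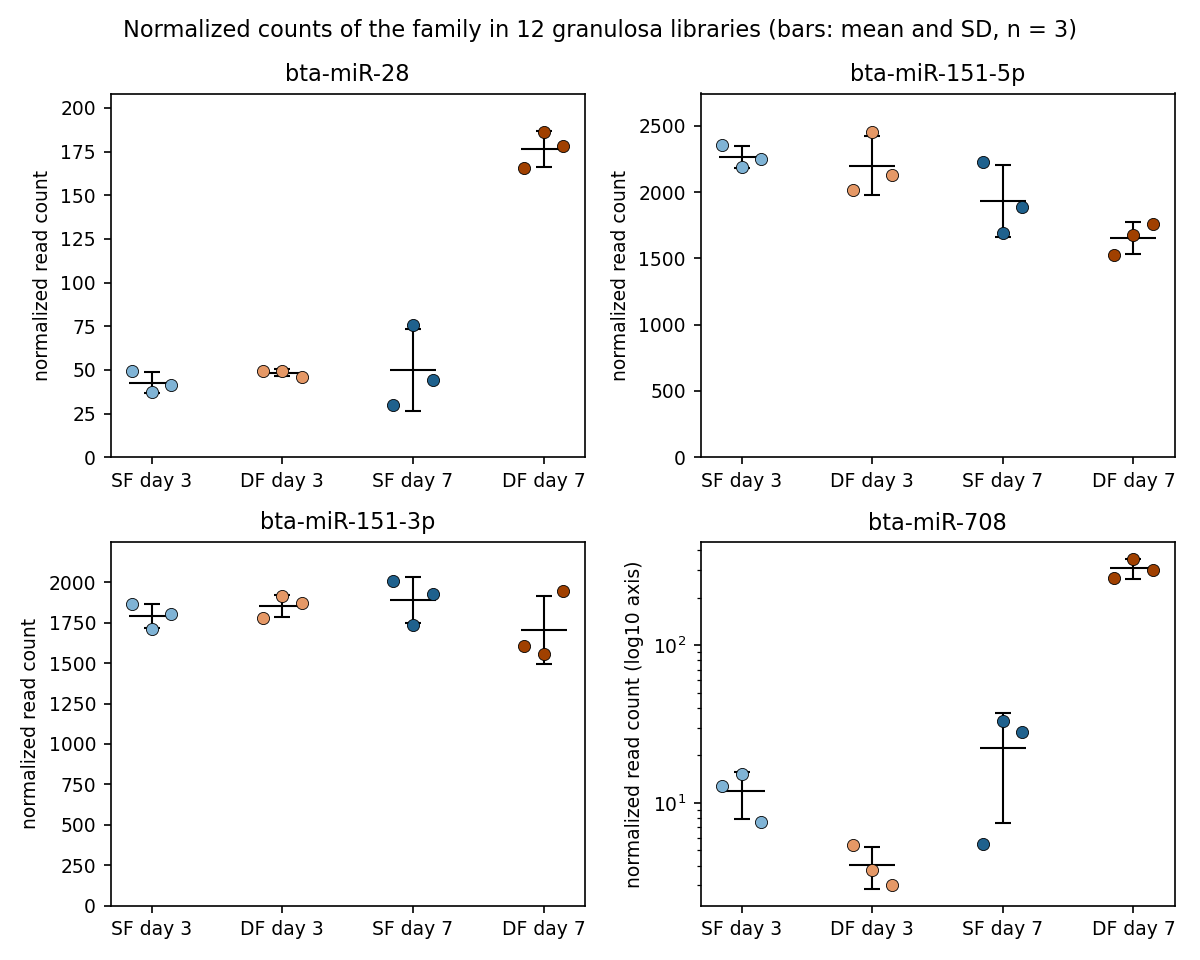
Normalized read count (vertical axis, logarithmic for bta-miR-708 only) of each member in the 4 groups; a point is a library, and the bars give the mean and SD (n = 3). The 3 DF libraries of day 7 lie at 267 to 355 for bta-miR-708 and at 166 to 186 for bta-miR-28, above all other libraries.

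The member with the largest differences was bta-miR-708. At day 3 the normalized counts of bta-miR-708 were 12.8, 15.2 and 7.52 in SF, against 5.39, 3.76 and 3.01 in DF, for replicates 1, 2 and 3, so all 3 SF libraries lay above all 3 DF libraries at a low level. At day 7 they were 5.48, 33.2 and 28.0 in SF, against 267, 355 and 301 in DF. All 3 DF libraries of day 7 were far above the other 9 libraries, and SF replicate 1 of day 7 was lower than the other two of its group. The raw reads of a group summed at day 3 to 31 for SF and 16 for DF, with exact 95% Poisson intervals of 21.1 to 44.0 and 9.15 to 26.0, and at day 7 to 66 for SF and 839 for DF. By group mean the order was DF at day 3, SF at day 3, SF at day 7 and DF at day 7, and of the neighbours in this order SF at day 3 and SF at day 7 overlapped.

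For bta-miR-28 the normalized counts at day 3 were 49.4, 37.3 and 41.3 in SF, against 49.3, 49.5 and 46.1 in DF. At day 7 they were 30.2, 75.7 and 44.0 in SF, against 166, 186 and 178 in DF. The 3 DF libraries of day 7 stood above all others, and the ranges of the other 3 groups overlapped, with the widest range in SF at day 7. The miR-151 arms had more reads than the other members in all 12 libraries. The normalized counts of bta-miR-151-5p at day 3 were 2355, 2189 and 2248 in SF, against 2019, 2449 and 2126 in DF. At day 7 they were 2223, 1690 and 1885 in SF, against 1522, 1677 and 1759 in DF. Those of bta-miR-151-3p lay between 1713 and 1913 in the 6 libraries of day 3 and between 1559 and 2008 in the 6 of day 7. For both arms each group overlapped its neighbours in the order of the means.

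To ask whether the family differed between follicle classes around selection, SF was compared with DF at day 3. Of the 4 members, bta-miR-708 alone was differentially expressed, in a comparison where 5.67% of the 335 miRNAs tested were called, 3.88% as higher in SF and 1.79% as lower. Its groups did not overlap, as for 27.8% of the miRNAs tested. In SF it was 2.75-fold higher than in DF, which is 1.46 ± 0.52 (standard error) on the log2 scale, with an adjusted p of 0.0697 in edgeR. The call rests on 3 to 14 reads per library. The settings that lost it included DESeq2 (adjusted p = 0.224), a fit over all 12 libraries (adjusted p = 0.218) and leaving out SF replicate 1, SF replicate 2, DF replicate 2 or DF replicate 3 (adjusted p = 0.206, 0.208, 0.194 and 0.136, edgeR), with log2 fold changes between 1.22 and 1.71 over the alternatives. The log2 fold changes of the other members were -0.22 for bta-miR-28, -0.00 for bta-miR-151-5p and -0.09 for bta-miR-151-3p, with standard errors of 0.23, 0.12 and 0.12 and adjusted p of 0.667, 0.986 and 0.716 (edgeR). None of these 3 passed the test. The median over the 4 members was -0.05 and that over all miRNAs tested -0.04. Of the marker miRNAs described further on, 1 of 5 of stroma and theca was called higher in SF on this day and 0 of 3 tested leukocyte miRNAs were, and their part in the result was not tested.

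At day 7, when one follicle dominates, bta-miR-708 and bta-miR-28 were both lower in SF than in DF, where 33.4% of the 350 miRNAs tested were called, 18.3% with lower counts in SF. The difference was 13.2-fold for bta-miR-708, or -3.72 ± 0.51 (standard error) on the log2 scale, with an adjusted p of 0.000418 in edgeR. It was 3.35-fold for bta-miR-28, or -1.74 ± 0.35 (standard error), with an adjusted p of 0.00372 in edgeR. The groups did not overlap for either, as for 45.7% of all miRNAs tested. Both were called under each of the 15 alternatives, with log2 fold changes between -4.15 and -3.24 for bta-miR-708 and between -2.19 and -1.46 for bta-miR-28. Without SF replicate 1 they were -3.24 and -1.46, and without DF replicate 2 they were -3.60 and -1.70. For bta-miR-151-5p and bta-miR-151-3p the log2 fold changes were 0.30 and 0.22, with standard errors of 0.20 and 0.19 and adjusted p of 0.269 and 0.383 (edgeR), and neither was called. The median over the members was -0.76, against -0.05 over all miRNAs tested.

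Between day 3 and day 7 in DF, bta-miR-708 and bta-miR-28 increased, where 40.3% of the 360 miRNAs tested were called, 24.4% with an increase. The increase was 72.1-fold for bta-miR-708, or 6.17 ± 0.33 (standard error) on the log2 scale with an adjusted p of 3.65e-09 in edgeR, from 4.05 ± 1.22 to 308 ± 44.1 normalized counts (SD, n = 3). It was 3.60-fold for bta-miR-28, or 1.85 ± 0.23 (standard error) with an adjusted p of 1.77e-05 in edgeR, from 48.3 ± 1.92 to 177 ± 10.2. For bta-miR-151-5p the log2 fold change was -0.43 ± 0.19 (standard error) with an adjusted p of 0.0876 in edgeR, which passed the limits on p and the false discovery rate but not the one on the fold change, so it was not called. Its DF libraries of the 2 days did not overlap, as was the case for 50% of all miRNAs tested. For bta-miR-151-3p it was -0.14 ± 0.19 (standard error), with an adjusted p of 0.556 in edgeR. The median over the members was 0.85, and over all miRNAs tested 0.05. This comparison shares its DF libraries with those between SF and DF, so their results are not independent.

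In SF no member was differentially expressed between the days, and 0.593% of the 337 miRNAs tested were, with 37 miRNAs at an unadjusted p under 0.05 in edgeR and 5 called by DESeq2. For bta-miR-708 the log2 fold change was 0.91 ± 0.57 (standard error) with an adjusted p of 0.658 in edgeR, and without SF replicate 1 of day 7 it was 1.36 with an adjusted p of 0.0331 (edgeR), which is a call. For bta-miR-28, bta-miR-151-5p and bta-miR-151-3p the log2 fold changes were 0.24, -0.21 and 0.09, with standard errors of 0.36, 0.15 and 0.14 and adjusted p between 0.726 and 0.928 (edgeR). That of bta-miR-28 became -0.23 without SF replicate 2 of day 7, which had the most bta-miR-28 of its group.

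**Figure D2:**
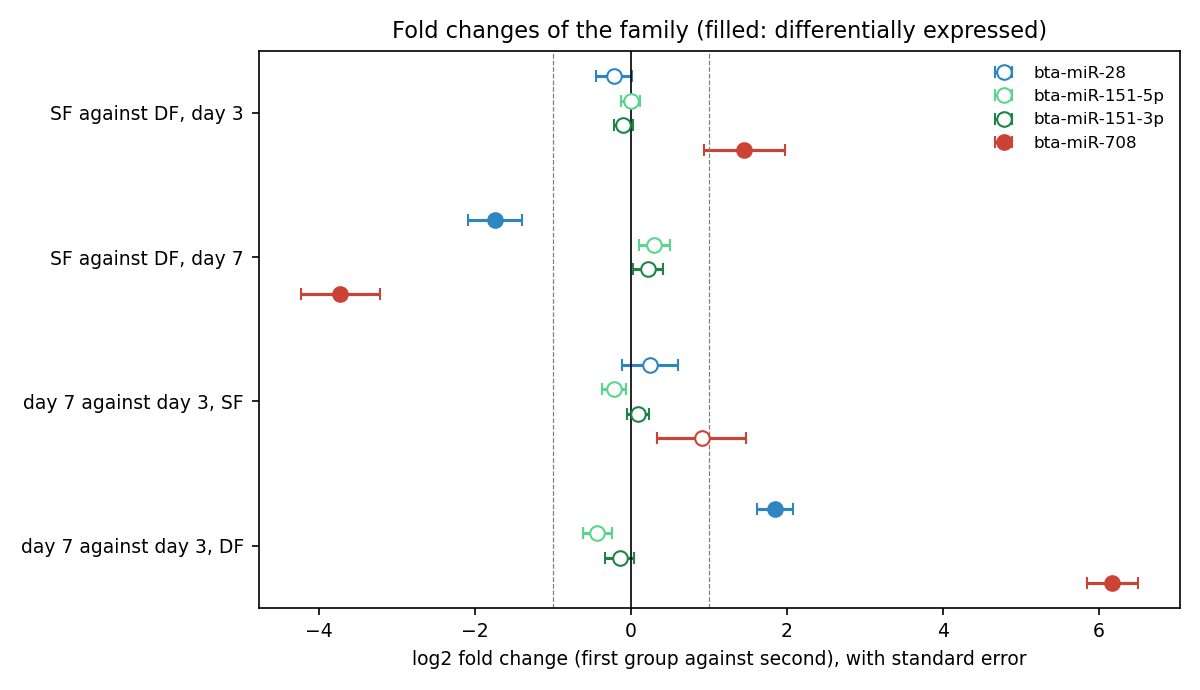
Log2 fold change (horizontal axis) of each member in the 4 comparisons, first group against second, with bars for the standard error; filled points were differentially expressed and dashed lines mark a log2 fold change of 1 either way. bta-miR-708 goes from 1.46 at day 3 to -3.72 at day 7 between SF and DF and reaches 6.17 between the days in DF, while both miR-151 arms stay within the dashed lines throughout.

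Whether the difference between SF and DF itself changed from day 3 to day 7 was tested as an interaction over all 12 libraries, in which 26.5% of 378 miRNAs were called, 14.3% with a negative value. The log2 difference moved by -5.30 ± 0.70 (standard error) for bta-miR-708, with an adjusted p of 2.30e-05 in edgeR. It moved by -1.65 ± 0.40 (standard error) for bta-miR-28, with an adjusted p of 0.00572 in edgeR. For bta-miR-151-5p and bta-miR-151-3p it moved by 0.18 and 0.20 (standard errors 0.22 and 0.21, adjusted p = 0.610 and 0.564, edgeR), and neither was called.

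A ratio of 2 members within a library needs no scaling between libraries. The ratio of bta-miR-708 to bta-miR-28 reads at day 3 was 0.259, 0.407 and 0.182 in SF, against 0.109, 0.0759 and 0.0652 in DF. At day 7 it was 0.182, 0.438 and 0.636 in SF, against 1.61, 1.91 and 1.69 in DF. DF at day 7 was the only group in which bta-miR-708 had more reads than bta-miR-28, and it did so in all 3 libraries. The groups did not overlap in SF against DF on either day nor between the days in DF, where the ratio was 21.3-fold higher at day 7. Each of these 3 comparisons gave p = 0.1 in a two-sided exact permutation test, the smallest that 3 against 3 libraries allow, and an adjusted p of 0.171 over the 12 ratio tests made. Between the days in SF the ratio overlapped, with an exact permutation p of 0.5. With the days compared within follicle class over all 12 libraries, the exact permutation p was 0.025, adjusted 0.15.

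Neither arm of the miR-151 hairpin was called in any comparison, but the ratio of the arms did not overlap between the days. Reads of bta-miR-151-5p per read of bta-miR-151-3p at day 3 were 1.26, 1.28 and 1.25 in SF, against 1.14, 1.28 and 1.14 in DF. At day 7 they were 1.11, 0.975 and 0.978 in SF, against 0.948, 1.08 and 0.904 in DF. All 6 libraries of day 3 lay above all 6 of day 7. Within follicle class the ratio at day 7 was 0.815 of that at day 3, a mean log2 difference of -0.30, with p = 0.005 in a two-sided exact permutation test, the smallest that this design allows, and an adjusted p of 0.06 over the 12 ratio tests. This lies above the limit of 0.05 used for the ratios and below the 10% rate used for the calls of single miRNAs. At the smallest p, the adjusted value could fall under 0.05 only with other low p among the 12 tests. The 0.06 therefore does not measure how firm the difference is. Without any 1 of the DF libraries of day 3 the exact permutation p was 0.01, adjusted 0.12. The log2 difference was -0.28 in DF and -0.31 in SF (each exact permutation p = 0.1, the smallest possible). Between SF and DF the ratios overlapped on both days. Each arm had between 914 and 3907 reads in a library.

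**Figure D3:**
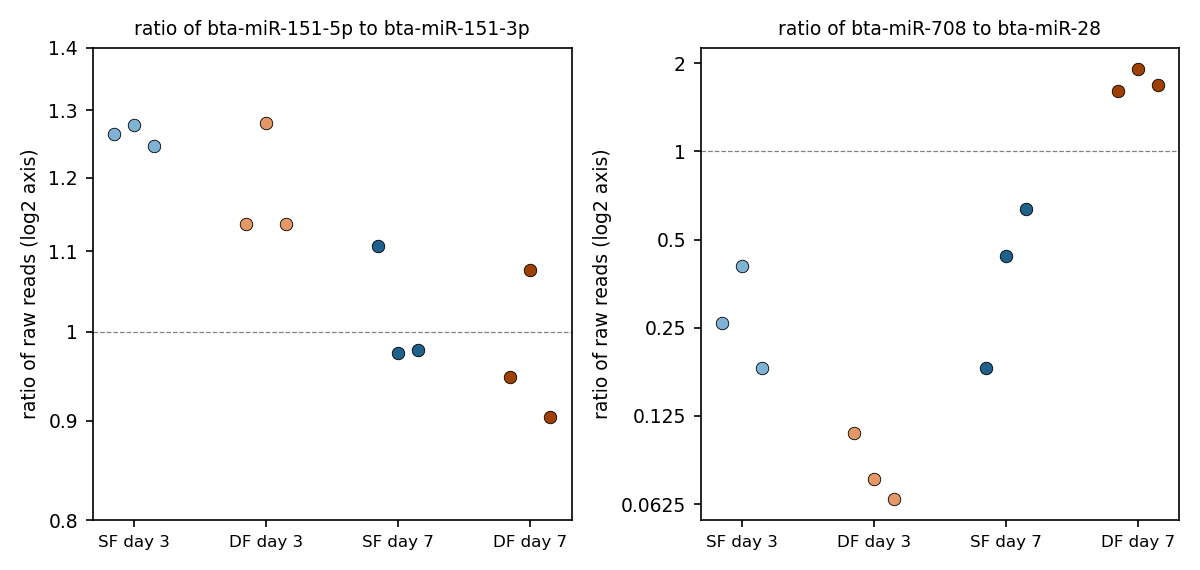
Ratio of raw reads (vertical axis, log2 scale) of bta-miR-151-5p to bta-miR-151-3p (left) and of bta-miR-708 to bta-miR-28 (right); a point is a library and the dashed line marks equal reads. The arm ratio lies at 1.14 to 1.28 on day 3 and at 0.904 to 1.11 on day 7, and the ratio of bta-miR-708 to bta-miR-28 exceeds 1 in the 3 DF libraries of day 7 only.

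For comparison, 5 precursors had a mean of at least 50 normalized counts on each of their arms named 5p and 3p, a limit chosen after the values were seen. The miR-151 precursor was 1 of the 2 whose ratio was lower at day 7 without overlap in SF and in DF, or 40%, and the other was bta-mir-199a-1. It was the only one of the 5, or 20%, for which all 6 libraries of day 7 lay below all 6 of day 3. The precursors bta-mir-21, bta-mir-126 and bta-mir-423 overlapped between the days in SF. In DF none of the 5 overlapped between the days. The mean log2 difference of day 7 from day 3 in DF was smallest in size for miR-151, at -0.28. It was -0.79 for bta-mir-199a-1, -0.95 for bta-mir-21, -0.59 for bta-mir-126 and 0.55 for bta-mir-423.

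The summed leukocyte miRNAs and the summed stroma and theca miRNAs were highest in DF at day 7, as were bta-miR-708 and bta-miR-28. The endothelial and erythrocyte sums did not set DF at day 7 apart from all other libraries. The endothelial sum was 226 in SF replicate 2 of day 7, beside 133 to 164 in DF of that day. The erythrocyte sum was 1684 in SF replicate 1 of day 3, beside 829 to 2381 in DF at day 7. In SF at day 7 the erythrocyte sum was lower, at 449 to 528. The 4 leukocyte miRNAs (bta-miR-142-3p, bta-miR-142-5p, bta-miR-150 and bta-miR-223) summed to between 110 and 226 normalized counts at day 3, to between 189 and 723 at day 7 for SF and to between 803 and 8856 at day 7 for DF. By group mean in DF at day 7, bta-miR-142-5p had 3460, bta-miR-150 812, bta-miR-223 6.13 and bta-miR-142-3p 4.04, so the sum rests mostly on the first 2. No read of bta-miR-142-3p was found in any library of day 3, which says little at so low a level. The 5 miRNAs of stroma and theca (bta-miR-143, bta-miR-145, bta-miR-199a-3p, bta-miR-199a-5p and bta-miR-214) summed to between 2510 and 5515 in the 9 other libraries and to between 8741 and 16997 in DF at day 7. Between the days in DF, 4 of 4 leukocyte and 5 of 5 stroma and theca miRNAs were called with an increase, 1 of 2 endothelial miRNAs was, and 0 of 3 erythrocyte miRNAs were. Of all 360 miRNAs tested there, 24.4% were. At day 7, 3 of 4 leukocyte, 4 of 5 stroma and theca, 2 of 2 tested erythrocyte and 0 of 2 endothelial miRNAs were called lower in SF than in DF. Of all 350 miRNAs tested on that day, 18.3% were. In the DF libraries of day 7 the leukocyte sum was 3189, 8856 and 803 for replicates 1, 2 and 3 and the stroma and theca sum 12254, 8741 and 16997, and bta-miR-708 was 267, 355 and 301 and bta-miR-28 166, 186 and 178. The part of other cells in these results was not tested, and a changed number of cells cannot be told apart from a changed amount of RNA per cell in such bulk samples.

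**Figure D4:**
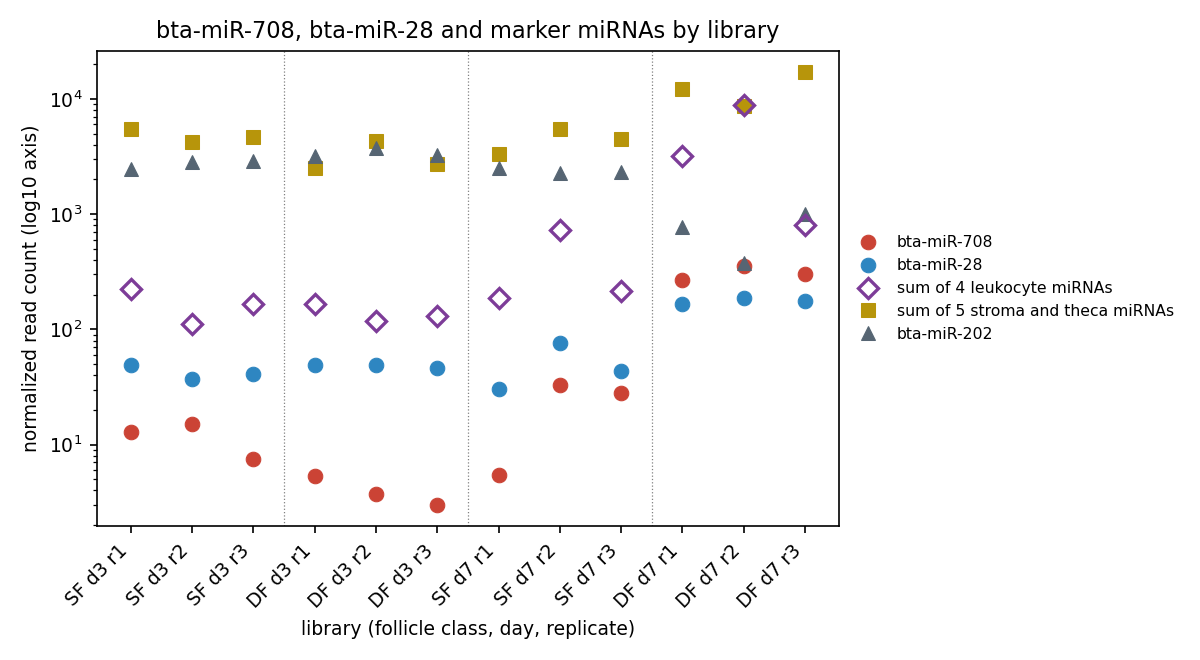
Normalized read count (vertical axis, log10 scale) of bta-miR-708, bta-miR-28, bta-miR-202 and the sums of the leukocyte and of the stroma and theca miRNAs in each of the 12 libraries (d, day; r, replicate). In DF at day 7 the leukocyte sum (803 to 8856), the stroma and theca sum (8741 to 16997) and bta-miR-708 (267 to 355) each lie above their values in the other 9 libraries.

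The study itself, with DESeq2 at the same limits, reported bta-miR-708 as higher in SF at day 3 and lower in SF at day 7. Its discussion of the days in DF named miR-28, without a value, as increased at day 7. There miR-28 stood among miRNAs that earlier work had tied to lower estradiol production. The DESeq2 fit made here did not call bta-miR-708 at day 3. The study also measured bta-miR-708 by qPCR in theca cells of these follicles. It did not list bta-miR-708 among the exceptions to a trend similar to that of the granulosa cells on either day. For selected miRNAs of the granulosa cells it reported qPCR with a trend like that of sequencing. The study named 7 other miRNAs with opposite directions on the 2 days, both arms of miR-21, bta-miR-155, bta-miR-221, bta-miR-222, bta-miR-214 and bta-miR-199a-5p, and since this list was chosen on these samples it is not independent evidence. The last 2 also stand in the stroma and theca list. Of these 7, 6 were called higher in SF at day 3, 7 lower in SF at day 7 and 7 higher in DF at day 7 than at day 3. Over all miRNAs tested these shares were 3.88%, 18.3% and 24.4%. Their median log2 fold changes were 1.71, -3.04 and 6.61, beside 1.46, -3.72 and 6.17 for bta-miR-708 and -0.22, -1.74 and 1.85 for bta-miR-28.

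Across the 12 libraries, the 3 of 182 other miRNAs with at least 10 normalized counts on average whose log2 counts ran most alike to bta-miR-708 were bta-miR-221, bta-miR-27a-3p and bta-miR-29a, with Pearson's r of 0.98 for each. Those most like bta-miR-28 were bta-miR-455-3p, bta-miR-24-3p and bta-miR-130b, with r of 0.96, 0.95 and 0.95. For bta-miR-151-5p they were bta-miR-374a, bta-miR-423-5p and bta-miR-744 (r of 0.90, 0.89 and 0.87) and for bta-miR-151-3p bta-miR-6119-5p, bta-miR-93 and bta-miR-296 (r of 0.81, 0.79 and 0.79). Within the family, r was 0.92 between bta-miR-708 and bta-miR-28, 0.58 between the arms of miR-151 and -0.84 between bta-miR-708 and bta-miR-151-5p. These values describe 12 libraries that share their scaling and fall into groups, with DF at day 7 apart from the rest for bta-miR-708 and bta-miR-28.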

How the data were processed

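Small RNA of 12 granulosa samples had been sequenced by Illumina. Per the labels, CASAVA 1.8.0, FastQC and cutadapt were used. The authors trimmed and filtered the reads, aligned them to UMD 3.1, quantified known bovine miRNAs with miRDeep2 and deposited raw read counts for 906 pairs of mature name and precursor. A name can be listed at several precursors with near-identical counts, so the entry with the highest total stood for a name. Adapter ligation and PCR copies can shift levels between sequences.

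Each comparison used the counts of its 6 libraries (the interaction all 12), keeping miRNAs that reached 1 read in 2 of the 3 replicates of any group, in R 4.3.3 with edgeR 4.0.16 and RLE factors. The standard error is the size of the log2 fold change divided by the square root of F, an approximation. DESeq2 1.42.0 was an alternative, as were TMM factors, scaling by library size, dropping the filter, a filter of 10 reads in 3 libraries, counts summed over precursors, all entries as listed, 1 fit over all libraries, a replicate block and leaving out each library. Log2 ratios of reads were compared with exact permutation tests, adjusted over 12 tests by Benjamini-Hochberg. The fits and the permutation test were tested on simulated data.

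Groups and replicate numbers came from the labels, which tie no number to an animal. Same-numbered libraries of SF and DF at day 7 deviated together (correlations of 0.11, 0.163 and 0.175 over 188 miRNAs), which counts as a pairing by the limit of 0.1 set for every pair. In the other comparisons at least 1 pair was under that limit. The members and lists were chosen with earlier results of these data known. All members, the 3 miRNAs most alike to each and the lists are named. Replicates of a group differed by a chi-square per degree of freedom of 11.3 to 152, so none was counted as a repeat. Mature sequences and coordinates were not analysed here.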

Additional observations from a re-analysis of the deposited data

Results flagged for a closer look

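By the interaction test of edgeR, the gap of SF to DF moved between the days by -5.30 on the log2 scale for bta-miR-708 (adjusted p = 2.30e-05) and by -1.65 for bta-miR-28 (adjusted p = 0.00572, edgeR). The ratio of bta-miR-708 to bta-miR-28 was higher in all SF than in all DF libraries at day 3, by a mean log2 difference of 1.72, and lower in all SF than in all DF libraries at day 7, by -2.23. That these 2 differences in the ratio differ from each other was not tested.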

How the results depend on the processing

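For bta-miR-28 and bta-miR-708, the calls at day 7, between the days in DF and in the interaction held under every alternative run. The call of bta-miR-708 at day 3 was lost with DESeq2 (log2 fold change 1.49), with a replicate block (1.48, adjusted p = 0.114, edgeR) and in 1 fit over all 12 libraries (1.501), and ranged from 1.22 to 1.71 on leaving out a library. It was not tested with the filter of 10 reads. Log2 fold changes near 0 turned sign. For bta-miR-151-5p at day 3 this was so with all entries (0.040), the replicate block (0.00042) and 1 fit over all libraries (0.043), with a leave-one-out range of -0.054 to 0.062. Between the days in SF, bta-miR-151-3p turned to -0.052 when scaled by library size alone, bta-miR-28 ranged from -0.23 to 0.48 and bta-miR-708 from 0.45 to 1.36 on leaving out a library. The ratio of bta-miR-708 to bta-miR-28 between SF and DF within day ranged from -0.45 to 0.00097 likewise, and the other ratio results kept their direction and their side of an adjusted p of 0.05. For a ratio compared between 2 groups that side was fixed in advance. Its exact permutation p cannot be lower than 0.1, so keeping the side says nothing about how firm the result is. The day difference in the ratio of the miR-151 arms had an adjusted p of 0.375 with the replicate block (exact permutation test by sign flips) and 0.06 to 0.12 under its other alternatives. The unadjusted p of the sign flips was 0.03125, the smallest that this test allows. Its adjusted p could therefore not fall under 0.05, and the 0.375 does not show a weaker difference.

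The number of miRNAs called at day 3 was 19, against 11 with DESeq2, 12 with the filter of 10 reads, 8 in 1 fit over all libraries and 10 to 22 on leaving out a library. Between the days in DF it was 145, against 92 with the filter. In SF it was 2, against 5 with DESeq2, 12 with no filter, 0 with the filter of 10 reads, 10 with all entries, 7 with the replicate block, 1 in 1 fit over all libraries and 0 to 20 on leaving out a library. The cause of these changes was not tested. The replicate block changed no other member's call, the paired day 7 comparison included. With it the day 7 log2 fold changes were -3.89 for bta-miR-708 and -1.84 for bta-miR-28. At 3 to 14 reads a library, the depth limits the day 3 values of bta-miR-708.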
